A study of Mus musculus with 18 samples.

Results

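The genes described here are 8 of the 35773 genes in the deposited tables. They are the core pluripotency genes Pou5f1, which encodes OCT4, Sox2 and Nanog, and 5 genes whose products work with them, Sall4, Utf1, Zscan10, Dppa2 and Dppa4. They were chosen by name, with earlier results of these data known. RNA-seq of 18 mouse samples, 3 in each of 6 groups, gave their levels. All samples carry the strain label 129S2/SvPasCrl and the genotype label wild type. Naive embryonic stem cells (ESCs) grew in 2i/LIF, that is 2 kinase inhibitors and leukemia inhibitory factor. AFSCs are primed cells from blastocysts kept in Activin A and bFGF (FGF2). ASCs came from AFSCs moved into ABCL medium, which holds Activin A, BMP4, the Wnt agonist CHIR99021 and LIF, and ESC-ASCs came from ESCs moved into the same medium. Which of the study's ESC lines gave these samples is not given in the sources used here. Epiblast-like cells (EpiLCs) and epiblast stem cells (EpiSCs) stand for formative and primed epiblast, and their media are not given in the sources used here. The study derived ASCs from AFSC lines that carried either GOF-GFP, a reporter driven by the Oct4 promoter and distal enhancer and so a readout of 1 of the 8 genes, or a Stella-GFP reporter, and which line gave these samples is not given in the sources used here.

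OCT4 and SOX2 bind DNA side by side on a composite motif, and with the homeodomain protein NANOG they form the centre of the network that holds pluripotency. SALL4 is a zinc finger protein that binds OCT4 and chromatin remodellers, ZSCAN10 is a zinc finger protein that binds OCT4 and SOX2, and UTF1 is a chromatin protein of undifferentiated cells. DPPA2 and DPPA4 are paired SAP domain proteins that keep the promoters of developmental genes open to activation and switch on genes of the early embryo such as Dux and Zscan4.

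The start regions of Nanog and Sox2 are shown because the motifs that OCT4 and SOX2 read lie in the first of them and only in part in the second. Each run is the 250 bases upstream of the RefSeq start (GRCm38.p6), read on the plus strand, with matches in capitals. In Nanog, at chr6:122707239-122707488, the capitals mark the composite motif, that is the SOX core CATTGT and the octamer ATGCAAA with 1 base between them, here on the minus strand and 75 to 62 bases before the start. In Sox2, at chr3:34649745-34649994, the capitals mark the octamer ATGCAAA, 99 to 93 bases before the start.
Nanog: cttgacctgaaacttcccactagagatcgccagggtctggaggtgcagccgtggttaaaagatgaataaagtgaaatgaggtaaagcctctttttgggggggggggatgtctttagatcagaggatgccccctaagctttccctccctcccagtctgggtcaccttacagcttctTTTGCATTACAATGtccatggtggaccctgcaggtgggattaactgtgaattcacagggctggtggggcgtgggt
Sox2: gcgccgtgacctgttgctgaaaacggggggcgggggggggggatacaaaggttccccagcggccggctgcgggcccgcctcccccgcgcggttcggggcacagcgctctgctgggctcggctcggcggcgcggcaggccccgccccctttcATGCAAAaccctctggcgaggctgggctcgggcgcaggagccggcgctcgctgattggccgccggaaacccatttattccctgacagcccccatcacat
The composite motif was found on either strand in the windows of 1 of 27025 genes with a window (0.0037%), which was Nanog. The octamer alone was found in 5.24% of genes and so also lies inside the Nanog match. The SOX core alone was found in 14.3% of genes, among them Nanog and Pou5f1. The Pou5f1 match lies in a window of a start inside the gene, chr17:35508557-35508856. The window at the first start of Pou5f1, chr17:35505782-35506081, had none. These windows run from 250 bases before to 50 after a start and were read for 5 of the 8 genes, Pou5f1, Sox2, Nanog, Utf1 and Zscan10. A match is a match of letters and no measure of binding.

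Total counts were 4961934 to 8077252 in ESCs, 17813619 to 18071600 in ESC-ASCs, and 6976376 to 9906473 in the other groups. Every ESC-ASC library was thus deeper than all others, and whether they were made or sequenced together with the others is not given. In results on ESC-ASCs the culture and any such difference cannot be told apart. Replicate 1 of ESCs, ASCs, EpiLCs and AFSCs stood apart from its own group. The chi-square per degree of freedom between these libraries and their partners was 21.5 to 100, against 1.65 to 11.8 in the other 10 pairs, so results that rest on them are given with and without them. In all 4 libraries the third of genes with the lowest GC content was higher than in the other replicates of the group (median log2 difference 0.09 to 0.19) and the third with the highest was lower (-0.26 to -0.05), most of all in ASC replicate 1. In that library all 8 genes were below the mean of the other ASC replicates, from -0.10 for Dppa4 to -1.04 for Utf1 on the log2 scale, and in the other 3 libraries the 8 genes went both ways (-0.47 to 0.78). Naive markers (Esrrb, Klf4, Tfcp2l1, Tbx3, Prdm14) summed to 1953 to 2917 normalized counts per kb in ESCs, ESC-ASCs and ASCs and to 9.02 to 27.6 in EpiLCs, AFSCs and EpiSCs. The primed markers (Fgf5, Otx2, Dnmt3b, Zic2, T, Eomes) summed to 266 to 437 in ESCs, ESC-ASCs and ASCs and to 1901 to 4292 in the others. In EpiLCs this sum was mostly Dnmt3b (mean 2660). T had a mean of 5.68 in EpiLCs, below those in ESCs (20.8), ESC-ASCs (15.4) and ASCs (26.9). Eomes, at 12.5 in EpiLCs, was above ESCs (2.37) but below ESC-ASCs (19.7) and ASCs (21.6). Endoderm markers summed to at most 21.6 outside EpiSCs and 63.3 in EpiSCs, and fibroblast markers to at most 116 in any library. Neural markers summed to 562 to 606 in ESCs and at most 210 elsewhere. In ESCs this was nearly all Tubb3 (mean 580), while Sox1 and Pax6 had means of 2.59 and 0.227. Trophoblast markers summed to 1937 to 2550 in AFSCs and at most 684 elsewhere. They were mostly Krt8 and Krt18, except in ESCs, where Cdx2 was highest (94.9 against 29.4 and 13.8). Elf5 was at 0 in all ESC-ASC samples, and so were Col3a1 and Postn. The part of these markers in the results was not tested, and in bulk RNA fewer cells of a type and less RNA per cell cannot be told apart.

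Pou5f1 was the most abundant of the 8 genes in every group and the least variable between groups. A level here is the normalized count per kb of exon, so genes can be compared with each other. ESC replicates 1, 2 and 3 held 5073, 5424 and 5159, ESC-ASC replicates 5126, 4391 and 5042, and ASC replicates 3495, 6867 and 6270.3. EpiLC replicates held 7155, 5637 and 5924, AFSC replicates 7109, 8338 and 6787, and EpiSC replicates 8214, 7671 and 8381. The group means spanned 1.67-fold, from 4853 ± 403 (SD, n = 3) in ESC-ASCs to 8089 ± 371 in EpiSCs. None of the 5 steps between neighbours in that order passed edgeR's quasi-likelihood test, the test used throughout, with adjusted p from 0.31 to 0.803. The unadjusted p was under 0.05 in 0 of the 5, and DESeq2 called 0 of them. Without the 4 libraries that stood apart, a choice made after seeing the data, 2 of the steps passed, AFSCs above EpiLCs by 0.41 (adjusted p = 0.00445) and ASCs above ESCs by 0.32 (adjusted p = 0.0246). The ends of the order did differ. EpiSCs were higher than ESCs by 0.62 ± 0.19 (SE) on the log2 scale (adjusted p = 0.00942) and AFSCs by 0.51 ± 0.19 (adjusted p = 0.029), and the latter call was lost without AFSC replicate 2 (adjusted p = 0.107) or without ESC replicate 1 or 3 (0.0724 and 0.0701).

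The Pou5f1 level in ASCs rested on 1 library. Replicate 1 was 0.91 lower on the log2 scale than the other 2 ASC replicates. The drop in that library was largest in Utf1 and Pou5f1, whose transcripts have a higher GC content than 98.1% and 87.1% of genes. Zscan10, at 85.4%, differed by -0.38, Sall4, at 69.2%, by -0.22 and Sox2, at 51.9%, by -0.48. Dppa4, at 44.2%, differed by -0.10, Nanog, at 28.4%, by -0.38 and Dppa2, at 18.7%, by -0.43. The part of GC content in the drop was not tested. With all replicates ESC-ASCs and ASCs did not differ (log2 difference -0.18, 95% interval -0.59 to 0.22, adjusted p = 0.445), and without ASC replicate 1 ESC-ASCs were lower by 0.43 on the log2 scale (a log2 fold change of -0.43, adjusted p = 0.0158). A second gene, Gm19553, lies on the opposite strand and shares 317 of the 2248 exonic bases of Pou5f1. Its counts were 54.4% to 74.9% of those of Pou5f1 across the 18 samples, and since fragments were counted without regard to strand and for each gene they overlap, reads of the 2 genes cannot be told apart there.

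**Figure D1:**
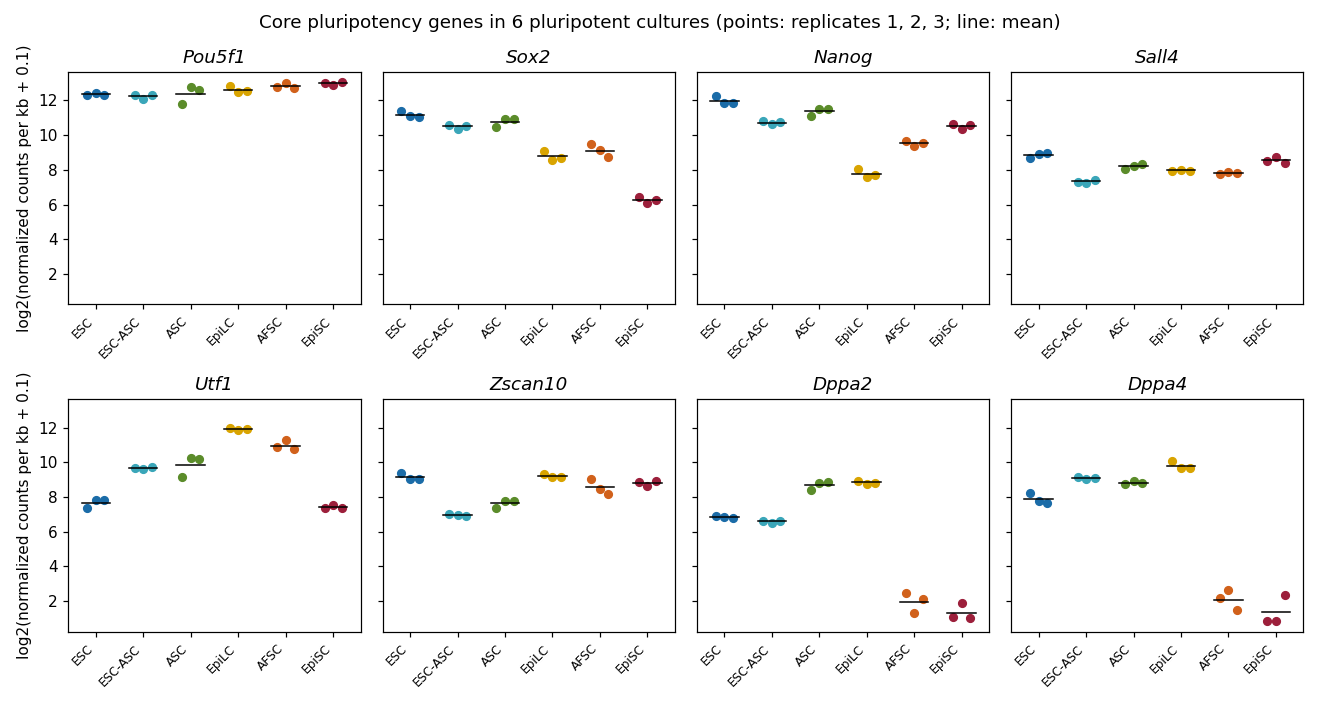
Level of each of the 8 genes in each sample, as log2 of normalized counts per kb of exon plus 0.1, by group, with 3 replicates as points and the group mean as a line. The mean of Pou5f1 stays between 12.24 and 12.98 while Dppa2 and Dppa4 fall to 1.34 to 2.09 in AFSCs and EpiSCs.

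Sox2 fell in steps from naive to primed cultures. ESC replicates held 2691, 2191 and 2107 normalized counts per kb, ASC replicates 1405, 1933 and 1980.4, and ESC-ASC replicates 1549.8, 1317 and 1492. AFSC replicates held 709, 555 and 429, EpiLC replicates 539, 378 and 410.0, and EpiSC replicates 85.5, 67.3 and 75.6. The 3 cultures that hold naive markers thus lay at 1317 or above and all others at 709 or below, and the mean in EpiSCs was 30.6-fold below that in ESCs. Only 2 of the 5 neighbouring steps passed the test, that from ESC-ASCs down to AFSCs (log2 difference 1.35 ± 0.18, adjusted p = 2.74e-06) and that from EpiLCs down to EpiSCs (2.56 ± 0.20, adjusted p = 3.23e-09). ESCs and ASCs did not overlap, as was so for 55.8% of all tested genes, and their difference, 0.41 ± 0.18, missed the threshold (adjusted p = 0.0618). The difference kept its direction in every refit that left out 1 library. Its size ran from -0.50 to -0.27 as a log2 fold change of ASCs over ESCs. It passed without AFSC replicate 1 or 3, which enter through the shared spread (adjusted p = 0.0355 and 0.0418), and was smallest without ASC replicate 1 (-0.27, adjusted p = 0.239). It was -0.13 without the 4 libraries that stood apart (adjusted p = 0.344). AFSCs and EpiLCs overlapped (adjusted p = 0.121), and the step passed without AFSC replicate 3 (adjusted p = 0.029) or EpiLC replicate 1 (adjusted p = 0.0357).

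The ratio of the pair therefore differed between cultures. Pou5f1 exceeded Sox2 by a mean of 2.25-fold in ESCs, 3.34-fold in ESC-ASCs, 3.04-fold in ASCs, 14.2-fold in EpiLCs, 13.4-fold in AFSCs and 107-fold in EpiSCs. The replicates ranged from 1.89 to 2.48 in ESCs and from 96.1 to 114 in EpiSCs, and the samples did not overlap between groups in 6 of the 7 comparisons tested. In each of those 6 the exact permutation test on the log2 ratios gave p = 0.1, two-sided, the smallest that 3 samples against 3 allow, or 0.117 after Benjamini-Hochberg adjustment over the 7. ESC-ASCs and ASCs overlapped (exact p = 0.6).

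Nanog had its highest level in ESCs and its lowest in EpiLCs, with EpiSCs in between. ESC replicates held 4967, 3671 and 3688 normalized counts per kb, EpiLC replicates 263, 193 and 204, and EpiSC replicates 1619, 1283 and 1534. ASC replicates held 2222, 2853 and 2913, ESC-ASC replicates 1787, 1586 and 1700.4, and AFSC replicates 807, 669 and 738. In contrast to Sox2, the gene was 6.64-fold higher in EpiSCs than in EpiLCs (log2 fold change 2.73 ± 0.17, adjusted p = 1.51e-10). In all, 4 of its 5 neighbouring steps passed the test, and ESC-ASCs and EpiSCs, which stand next to each other, did not differ beyond their spread (log2 difference 0.19 ± 0.16, adjusted p = 0.28). This step passed too when the 4 libraries that stood apart were left out (0.20, adjusted p = 0.0388).

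**Figure D2:**
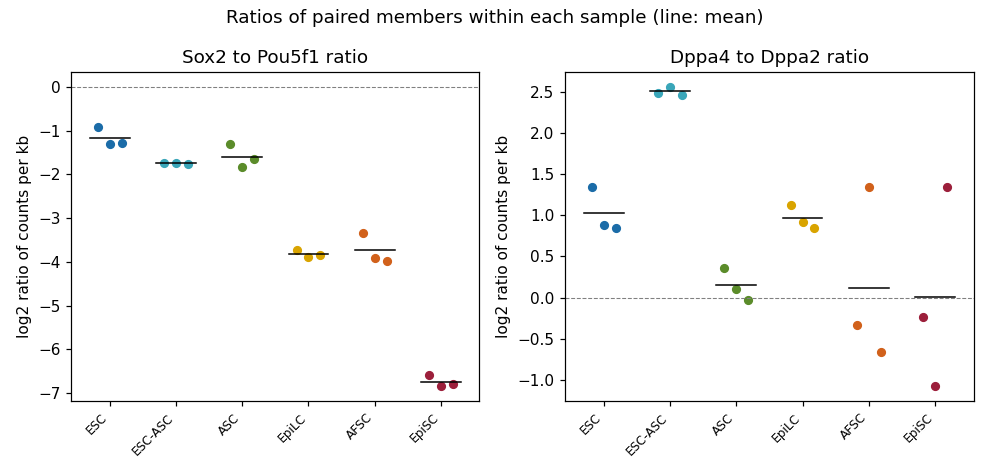
Log2 ratio of Sox2 to Pou5f1 (left) and of Dppa4 to Dppa2 (right), from normalized counts per kb in each sample, with the mean of 3 replicates as a line and equal levels as the dashed line. The Sox2 ratio falls from -1.17 in ESCs to -6.74 in EpiSCs, and the Dppa4 ratio in AFSCs and EpiSCs rests on 2 to 8 counts a gene and sample.

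Sall4 spanned 2.86-fold between its highest and lowest group. ESC replicates held 405, 479.7 and 492 normalized counts per kb and ESC-ASC replicates 158, 151 and 172, the highest and lowest groups. EpiSC replicates held 369, 424 and 342, ASC replicates 266, 294 and 327, EpiLC replicates 246, 253 and 248, and AFSC replicates 220.1, 233 and 226. ESC-ASCs were below every other group without overlap, and the nearest, AFSCs, was higher by 0.51 ± 0.12 on the log2 scale (adjusted p = 0.00105). In the pairs with ESC-ASCs 63.6% to 81.9% of all tested genes did not overlap, in either direction. The difference of 0.29 ± 0.12 between ESCs and EpiSCs (adjusted p = 0.0453), whose samples overlapped, was lost in 11 of 18 refits that each left out 1 library, among them ESC replicates 2 and 3 and EpiSC replicates 1 and 3, with adjusted p from 0.0514 to 0.191. EpiSCs exceeded ASCs by 0.37 ± 0.12 (adjusted p = 0.0125), a call lost without EpiSC replicate 2 (adjusted p = 0.0747). Gm14261, on the opposite strand, shares 526 of the 5536 exonic bases of Sall4, with counts of 0.34% to 8.32% of those of Sall4.

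Zscan10 was lower in both cultures kept in ABCL than in the other 4. ESC-ASC replicates held 129, 123 and 120.2 normalized counts per kb and ASC replicates 167, 219 and 216. ESC replicates held 677, 520.4 and 516, EpiLC replicates 638, 577 and 562, EpiSC replicates 471, 402 and 480.0, and AFSC replicates 525, 346 and 295. Every sample in ABCL was below every other sample. Between a group in ABCL and a group outside it, 55.8% to 81.9% of all tested genes did not overlap, in either direction. The step from AFSCs down to ASCs was 0.98 ± 0.17 on the log2 scale (adjusted p = 8.05e-05) and that from ASCs to ESC-ASCs 0.69 ± 0.17 (adjusted p = 0.00306), whereas the 3 steps among the other groups missed the threshold (adjusted p from 0.0854 to 0.781). Of these 3, the step from ESCs to EpiSCs passed without AFSC replicate 1 (-0.35, adjusted p = 0.0255) or without the 4 libraries that stood apart (-0.21, adjusted p = 0.0356), and so did the step from EpiSCs to AFSCs (-0.48, adjusted p = 0.0138, and -0.47, adjusted p = 0.000143). AFSCs were lower than ESCs by 0.55 ± 0.17 (a log2 fold change of -0.55, adjusted p = 0.00966), and this call was lost without AFSC replicate 3 (0.0686) or ESC replicate 1 (0.0503).

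Utf1 peaked in EpiLCs. EpiLC replicates held 3966, 3667 and 3839 normalized counts per kb, against 165, 228 and 230.0 in ESCs and 163, 184 and 167 in EpiSCs. AFSC replicates held 1892, 2449 and 1727, ASC replicates 579, 1241 and 1148, and ESC-ASC replicates 829, 782 and 851. Utf1 was thus 18.3-fold higher in EpiLCs than in ESCs (log2 fold change 4.20 ± 0.24, adjusted p = 2.44e-11) and 22.5-fold lower in EpiSCs than in EpiLCs (-4.49 ± 0.24, adjusted p = 2.16e-11). AFSCs and EpiSCs, both primed cultures, differed 11.9-fold (adjusted p = 5.74e-10). ASC replicate 1 was 1.04 below the other 2 on the log2 scale. ASCs and ESC-ASCs did not differ with that library (log2 difference -0.26, 95% interval -0.69 to 0.17, adjusted p = 0.302), and without it ESC-ASCs were lower (-0.54, adjusted p = 0.00765).

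Dppa2 and Dppa4 lie side by side on the plus strand, Dppa4 at chr16:48283735-48294292 and Dppa2 at chr16:48310477-48319723 (GRCm38), with 16184 bases between them. Both were high in EpiLCs and close to nothing in AFSCs and EpiSCs. Dppa2 held 487, 436 and 454 normalized counts per kb in EpiLC replicates, 339, 445 and 466 in ASC replicates, 118, 117 and 113 in ESC replicates and 99.7, 91.0 and 99.4 in ESC-ASC replicates. Its 3 AFSC samples had 8, 4 and 8 counts and its 3 EpiSC samples 3, 8 and 4. Dppa4 held 1066, 822 and 820.4 in EpiLC replicates, 560.2, 536 and 545 in ESC-ASC replicates, 436, 479 and 455 in ASC replicates and 299, 215 and 204 in ESC replicates. Its AFSC samples had 5, 8 and 4 counts and its EpiSC samples 2, 3 and 8.

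Summed over 3 samples Dppa2 had 20 counts in AFSCs (exact 95% Poisson interval 12.2 to 30.9) and 15 in EpiSCs (8.4 to 24.7), and Dppa4 had 17 (9.9 to 27.2) and 13 (6.92 to 22.2). These intervals cover counting error only. Both genes were lower in EpiSCs than in EpiLCs, by a log2 fold change of -7.44 ± 0.22 for Dppa2 (adjusted p = 1.97e-14) and -8.27 ± 0.27 for Dppa4 (adjusted p = 2.99e-14). These standard errors are too small for the size of the difference, since the counting error of the EpiSC counts alone is larger. At this depth a difference between AFSCs and EpiSCs was not detectable, with 95% intervals of -0.21 to 1.44 for Dppa2 and -0.56 to 1.74 for Dppa4 on the log2 scale. These 95% intervals come from standard errors of the same kind and may be too narrow.

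The 2 neighbours parted in ESC-ASCs. Dppa4 exceeded Dppa2 by 2.03-fold in ESCs, 1.95-fold in EpiLCs and 1.11-fold in ASCs but by 5.66-fold in ESC-ASCs. The ESC-ASC replicates ranged from 5.49 to 5.89 and all other replicates of these 4 groups lay at or below 2.53. Against ASCs the log2 ratio was higher by 2.36 and against ESCs by 1.48 (exact permutation p = 0.1 each, the smallest possible, and 0.233 after adjustment over 7 comparisons). In ESC-ASCs against ASCs Dppa2 was 4.28-fold lower (log2 fold change -2.10 ± 0.14, adjusted p = 1.75e-09). Dppa4 did not pass there (0.27 ± 0.16, adjusted p = 0.165), although it did with only these groups in the fit (0.26, adjusted p = 0.0395). Against ESCs, the kind of culture that ESC-ASCs came from, Dppa4 was higher (1.19 ± 0.16, adjusted p = 4.68e-06). Dppa2 did not pass against ESCs (-0.28 ± 0.15, adjusted p = 0.107), except in settings given below.

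The comparisons ask which of the 8 genes separate the cultures. Much of the transcriptome differed between any 2 cultures, so each count of the 8 genes stands beside the share of the 16901 tested genes that passed the same threshold, an adjusted p below 0.05. All 8 genes passed the filter of at least 10 counts in at least 3 samples, Dppa2 and Dppa4 through the groups where they are high.

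Between ASCs and ESCs 6 of the 8 genes passed, against 50.3% of all genes. Utf1 (log2 fold change 2.22 ± 0.22), Dppa2 (1.82 ± 0.15) and Dppa4 (0.92 ± 0.16) were higher in ASCs, and Zscan10 (-1.53 ± 0.18), Sall4 (-0.66 ± 0.12) and Nanog (-0.64 ± 0.16) were lower. The adjusted p of these 6 ran from 1.21e-08 for Dppa2 to 0.00231 for Nanog. Pou5f1 (0.064 ± 0.19) and Sox2 (-0.41 ± 0.18) did not pass. For Sox2 the 2 groups did not overlap, as was so for 55.8% of all genes. The Nanog difference was smaller without the 4 libraries that stood apart (-0.34, adjusted p = 0.00807).

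Between ESC-ASCs and ESCs 6 genes also passed, against 60.1% of all genes. Utf1 (1.96 ± 0.22) and Dppa4 (1.19 ± 0.16) were higher, and Zscan10 (-2.21 ± 0.18), Sall4 (-1.53 ± 0.12), Nanog (-1.29 ± 0.16) and Sox2 (-0.69 ± 0.18) were lower, with adjusted p up to 0.00261. Dppa2 did not pass (-0.28 ± 0.15, adjusted p = 0.107), but did without the 4 libraries that stood apart (-0.26, adjusted p = 0.0382) and with only these groups in the fit (-0.30, adjusted p = 0.0264). Its samples did not overlap, as was so for 69.8% of all genes. This comparison shares its ESC samples with the one before.

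Set against each other, the 2 cultures in ABCL differed in 4 of the 8 genes, all lower in ESC-ASCs, against 50.7% of all genes called and 27.7% called lower. They were Dppa2, Sall4 (-0.87 ± 0.12), Zscan10 and Nanog (-0.65 ± 0.16, adjusted p = 0.00219). Without the 4 libraries that stood apart 7 genes passed, beside 9954 of the 16607 genes then tested. The added ones were Pou5f1 (-0.45, adjusted p = 0.000761), Sox2 (-0.45, adjusted p = 0.000577) and Utf1 (-0.56, adjusted p = 0.000131), all lower in ESC-ASCs.

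Between ASCs and AFSCs, the kind of culture they came from, 7 genes passed, against 64.0% of all genes. Dppa4 (6.67 ± 0.26), Dppa2 (6.66 ± 0.22), Nanog (1.82 ± 0.16), Sox2 (1.63 ± 0.18) and Sall4 (0.36 ± 0.12) were higher in ASCs, and Utf1 (-1.06 ± 0.21) and Zscan10 (-0.98 ± 0.17) were lower. The adjusted p was at most 0.000212 except for Sall4, whose call (adjusted p = 0.0147) was lost without ASC replicate 3 (adjusted p = 0.0765). For Dppa2 and Dppa4 the standard errors are again too small, with at most 8 counts of either gene in an AFSC sample. The Zscan10 difference was -0.56 without the 4 libraries that stood apart (adjusted p = 6.18e-05). Pou5f1 was just outside the threshold (-0.45 ± 0.19, adjusted p = 0.0513) and inside it without ASC replicate 2 or 3 or AFSC replicate 3 (adjusted p from 0.0148 to 0.0494). Its size rested on ASC replicate 1, since the difference was -0.20 without that library (adjusted p = 0.222) and -0.20 without the 4 libraries that stood apart (adjusted p = 0.128).

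From ESCs to EpiLCs, the step taken as exit from the naive state, 6 genes passed, against 55.3% of all genes. Utf1, Dppa2 (1.99 ± 0.15) and Dppa4 (1.93 ± 0.17) were higher in EpiLCs, and Nanog (-4.22 ± 0.18), Sox2 (-2.39 ± 0.19) and Sall4 (-0.88 ± 0.12) were lower. Nanog thus fell 18.6-fold while Pou5f1 (0.26 ± 0.19, adjusted p = 0.264) and Zscan10 (0.062 ± 0.17) did not pass.

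From EpiLCs to EpiSCs 6 genes passed, against 48.6% of all genes. It shares the EpiLC samples with the comparison before it. Nanog (2.73 ± 0.17) and Sall4 (0.59 ± 0.12) were higher in EpiSCs, and Dppa4, Dppa2, Utf1 and Sox2 (-2.56 ± 0.20) were lower. Zscan10 (-0.41 ± 0.17, adjusted p = 0.0542) and Pou5f1 (0.36 ± 0.19, adjusted p = 0.136) did not pass. Zscan10 passed without ESC, ASC or AFSC replicate 1 or AFSC replicate 3 (adjusted p from 0.0126 to 0.0438) and Pou5f1 without ASC replicate 1 (adjusted p = 0.0208). Leaving out the 4 libraries together, both passed, Zscan10 at -0.33 (adjusted p = 0.00271) and Pou5f1 at 0.49 (adjusted p = 0.000409). Over all genes 9992 of 16607 then passed.

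The primed cultures AFSCs and EpiSCs differed in 4 of the 8 genes, against 39.4% of all genes. Utf1 (3.57 ± 0.23) and Sox2 (2.91 ± 0.20) were higher in AFSCs, and Nanog (-0.99 ± 0.16) and Sall4 (-0.73 ± 0.12) were lower. Zscan10 did not pass (-0.20 ± 0.17, adjusted p = 0.385), but did without AFSC replicate 1, as given above. Sox2 was thus 7.51-fold higher in AFSCs, whereas for Pou5f1 the interval of the difference ran from -0.52 to 0.29 on the log2 scale.

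**Figure D3:**
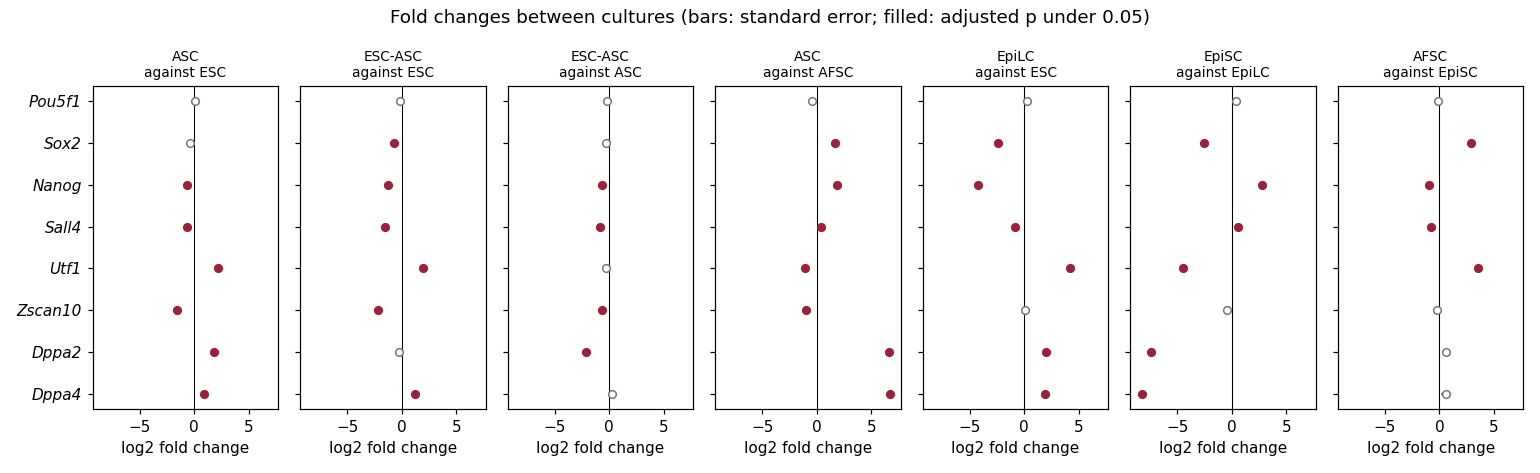
Log2 fold change of the 8 genes in the 7 main comparisons, with the standard error as a bar, often shorter than the point, and an adjusted p under 0.05 as a filled point. Pou5f1 is open in all 7, Nanog and Sall4 are filled in all 7, and the largest values are Dppa2 and Dppa4 in the comparisons of ASCs with AFSCs and EpiSCs with EpiLCs.

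The other 8 pairs of groups were tested to order the levels. All 8 genes passed in AFSCs against ESCs (60.5% of all genes), in ASCs against EpiSCs (66.5%) and in ESC-ASCs against AFSCs (69.0%). The Pou5f1 call in ASCs against EpiSCs (-0.56 ± 0.19, adjusted p = 0.0167) was lost without ASC replicate 1 (adjusted p = 0.0588). In ESC-ASCs 7 passed against EpiLCs (64.1%), all but Pou5f1, which passed without ASC replicate 1 (adjusted p = 0.0111), and 7 against EpiSCs (72.2%), all but Nanog. In EpiSCs against ESCs 6 passed (61.2%), in ASCs against EpiLCs 5 (59.8%) and in AFSCs against EpiLCs 5 (47.1%). Without the 4 libraries that stood apart Pou5f1 passed in ESC-ASCs against EpiLCs (-0.24, adjusted p = 0.0435) and Nanog in ESC-ASCs against EpiSCs. In EpiSCs against ESCs all 8 then passed, with Utf1 (-0.42, adjusted p = 0.00816) and Zscan10 added, beside 11944 of 16607 genes tested. In AFSCs against EpiLCs 7 passed, with Pou5f1 and Sox2 (0.35, adjusted p = 0.0166) added, beside 9049 of 16607. In ASCs against EpiLCs 6 passed, with Sall4 added (0.34, adjusted p = 0.00802), beside 10044 of 16607.

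ABCL medium received cells from 2 sides, AFSCs and ESCs, and the difference of the 2 moves was tested within the same fit. A move here is a difference between 2 groups of samples. Whether the AFSCs and ESCs measured are the parent lines of the ASCs and ESC-ASCs measured is not given. Line and medium therefore cannot be told apart. The move differed for 7 of the 8 genes, against 58.5% of all genes. This difference equals that between ASCs and ESC-ASCs less that between AFSCs and ESCs. All 8 genes passed in AFSCs against ESCs, so moves towards like end levels also differ. Utf1 and Sox2 differed by 3.28 and -2.04 in AFSCs against ESCs. Between ESC-ASCs and ASCs they did not pass (adjusted p = 0.302 and 0.199), though both did without the 4 libraries that stood apart. Dppa2 rose 6.66 from AFSCs to ASCs but had a log2 fold change of -0.28 from ESCs to ESC-ASCs, a difference of 6.93 ± 0.27 (adjusted p = 1.37e-13). Nanog, Sox2 and Sall4 were higher after the move from AFSCs and lower after the move from ESCs, and Utf1 was lower after the first and higher after the second. For Zscan10 both moves went down, by a log2 fold change of -0.98 and -2.21, with a difference of 1.24 ± 0.24 (adjusted p = 0.000258). The difference for Pou5f1 did not pass (-0.33, 95% interval -0.90 to 0.25, adjusted p = 0.32).

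**Figure D4:**
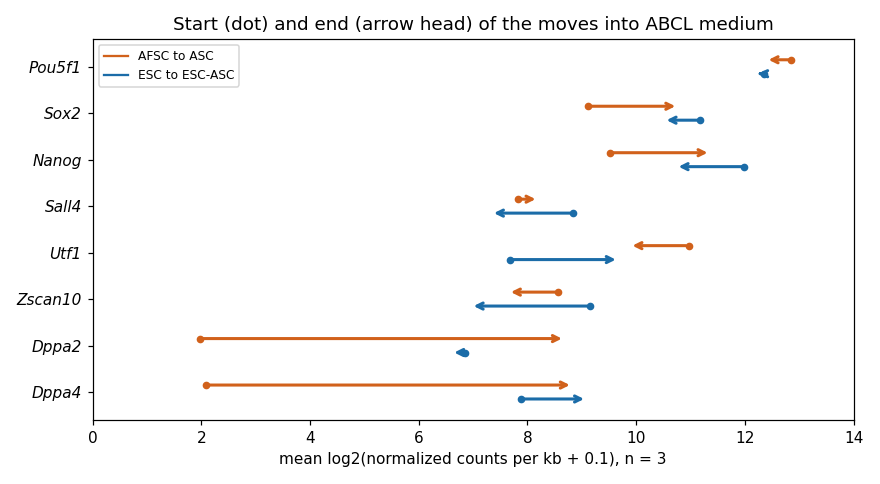
Mean log2 level (normalized counts per kb plus 0.1, n = 3) before the move into ABCL as a dot and after it as an arrow head, for AFSCs to ASCs and for ESCs to ESC-ASCs. The arrows of Nanog, Sox2, Sall4, Utf1 and Dppa2 point in opposite directions, and those of Nanog, Sox2, Sall4 and Dppa2 pass each other. By the edgeR test the Sox2 levels in ASCs and ESC-ASCs did not differ (adjusted p = 0.199). Nor did Dppa2 in ESCs and ESC-ASCs (adjusted p = 0.107). Both arrows of Zscan10 point down.

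Genes that OCT4 and SOX2 are known to drive were followed as a list of 7 (Fgf4, Fbxo15, Lefty1, Spp1, Tdgf1, Zfp42, Foxd3). All 7 were lower in EpiSCs than in EpiLCs (27.0% of all genes were called lower), with a median log2 fold change of -3.92 against -0.074 over all genes. Among them were Spp1, the secreted protein osteopontin (-6.20 ± 0.47, adjusted p = 4.13e-09), and Fgf4, a growth factor with an OCT4-SOX2 enhancer (-4.98 ± 0.15, adjusted p = 1.97e-14), while Zfp42 (Rex1) had no count in any EpiSC sample and was at least 52.7-fold lower, taking 3 counts per library as the floor. Between ASCs and AFSCs (64.0% of all genes called) 6 of the 7 were higher and Lefty1, a Nodal inhibitor, was lower (-4.10 ± 0.19, adjusted p = 1.94e-12), with a median of 2.66 against 0.021. In ESC-ASCs against ESCs (60.1%) 4 were lower and 1 higher, namely Foxd3, a forkhead factor (-3.28 ± 0.15), Fbxo15, Zfp42 and Lefty1 against Tdgf1, the Nodal co-receptor (1.80 ± 0.17). In ASCs against ESCs (50.3%) 2 were higher and 2 lower, in EpiLCs against ESCs (55.3%) 1 was higher and 4 lower, in ESC-ASCs against ASCs (50.7%) 1 was higher and 4 lower, and in AFSCs against EpiSCs (39.4%) 5 were higher and 1 lower.

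Genes that DPPA2 and DPPA4 activate were followed as a list of 7, of which 6 passed the count filter (Syce1, Zfp352, Duxf3, Zscan4c, Zscan4d, Zscan4f) and Nkx2-5 did not. The Zscan4 copies are near-identical, and fragments that map to several places were counted at each, so their counts are not independent. Summed levels were 1969 to 2406 normalized counts per kb in the ASC samples, 196 to 256 in ESC-ASCs, 197 to 275 in EpiLCs, 69.4 to 93.2 in ESCs, at most 4.66 in AFSCs and at most 1.56 in EpiSCs. Duxf3 and Zfp352 reached 10 counts in the 3 ASC samples and in no other, so the filter itself fixed them as high in ASCs and they are left out of the counts that follow. Syce1 (1.13 ± 0.20), Zscan4c (6.30), Zscan4d (6.34) and Zscan4f (6.41 ± 0.32) were higher in ASCs than in ESCs (26.4% of all genes were called higher). The same 4 were higher in ASCs than in AFSCs (32.8% of all genes) and lower in ESC-ASCs than in ASCs (27.7% called lower), from -0.99 for Syce1 to -3.88 for Zscan4d. All 4 were higher in EpiLCs than in ESCs (55.3% called in either direction), and in ESC-ASCs against ESCs (60.1%) the Zscan4 copies were higher while Syce1 did not pass (0.14 ± 0.20, adjusted p = 0.568). Zscan4f, a zinc finger gene of the 2-cell embryo, had mean levels of 998 in ASCs, 83.3 in ESC-ASCs, 69.8 in EpiLCs and 12.1 in ESCs. ASCs and EpiLCs did not differ in Dppa2 (log2 difference -0.17 ± 0.14, adjusted p = 0.301), and Dppa4 was lower in ASCs (-1.01 ± 0.16, adjusted p = 2.78e-05). Syce1 had means of 119 in ASCs and 90.0 in EpiLCs, and most of the gap in the summed level between these 2 cultures lay in the Zscan4 copies. Zfp352 and Duxf3, which the filter fixed as high in ASCs, were also higher there than in EpiLCs, with ASC means of 15.1 and 7.46. By immunofluorescence the paper found MERVL-Gag without OCT4 in only a small part of ASCs, and more rarely in ESCs. Whether the Zscan4 counts come from a few cells was not tested. Whether Dppa2 and Dppa4 set the level of any gene of this list was not tested either.

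Relatives of the 8 genes were followed as a list of 14. Of these, 13 passed the filter and Pou5f2 was listed at 0 in every sample. Sox3, a close relative of Sox2, ran in the opposite direction, with mean levels of 6.66 normalized counts per kb in ESCs, 10.3 in ESC-ASCs, 77.6 in ASCs, 94.5 in AFSCs, 358 in EpiLCs and 1049 in EpiSCs. In EpiSCs alone the mean of Sox3 per kb was thus above that of Sox2 (76.1). It was below in every other group, among them EpiLCs (Sox2 at 442) and AFSCs (Sox2 at 564). Sox3 was higher in EpiLCs than in ESCs (5.74 ± 0.23, adjusted p = 2.43e-13) and higher again in EpiSCs (1.54 ± 0.16, adjusted p = 1.31e-07). Sox15, which can stand beside OCT4 in place of SOX2, went down with Sox2 from EpiLCs to EpiSCs (-2.09 ± 0.38, adjusted p = 0.000137). Pou3f1 (OCT6) shared the EpiLC peak of Utf1, at a mean of 662 against 2.45 in ESCs and 37.7 in EpiSCs.

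**Figure D5:**
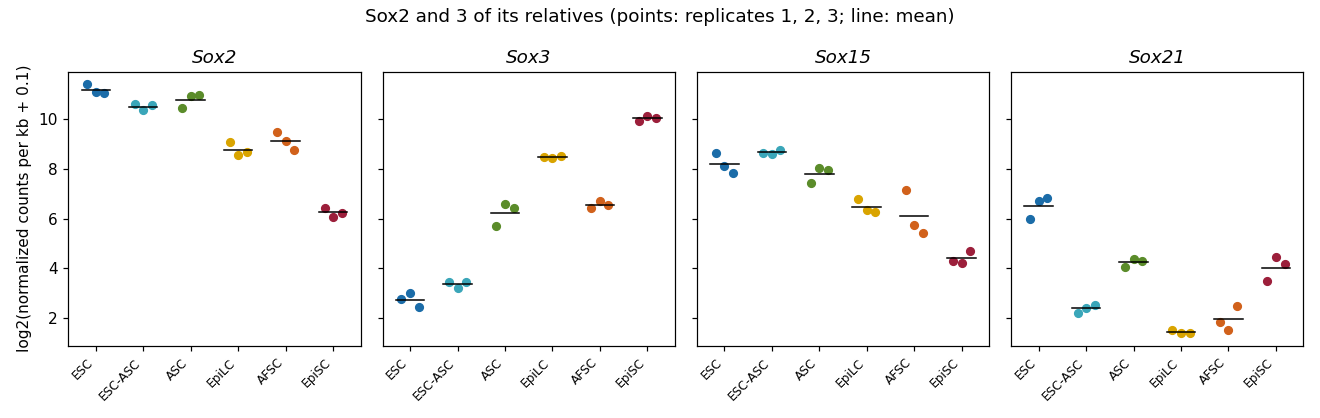
Log2 of normalized counts per kb plus 0.1 of Sox2 and its relatives Sox3, Sox15 and Sox21 in each sample by group, with the mean of 3 replicates as a line. Sox2 falls from a mean of 11.18 in ESCs to 6.25 in EpiSCs while Sox3 is highest in EpiSCs.

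Between cultures the calls of this list ran both ways. Beside 50.3% of all genes called in ASCs against ESCs, 6 of the 13 were higher and 3 lower, from Sox3 (3.51) to Dppa3 (-3.29), the maternal factor Stella. In ASCs against AFSCs (64.0%) 7 were higher and 4 lower, from Dppa5a (9.93) to Pou3f1 (-4.13). In ESC-ASCs against ESCs (60.1%) 3 were higher and 5 lower, from Pou3f1 (2.15) to Sox21 (-4.20). In EpiLCs against ESCs (55.3%) 6 were higher and 5 lower, from Pou3f1 (8.03) to Sox21 (-5.16), and in EpiSCs against EpiLCs (48.6%) 4 were higher and 7 lower, from Sall3 (4.36) to Dppa5a (-12.03). In ESC-ASCs against ASCs (50.7%) Sox15 was higher (0.84) and 4 were lower, Sox3 the most (-2.90), and in AFSCs against EpiSCs (39.4%) 4 were higher and 7 lower.

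Protein partners of the network, chiefly subunits of chromatin complexes that purify with OCT4 or NANOG, were followed as a list of 26, and all passed the filter. In EpiSCs against EpiLCs 4 were higher and 3 lower and the other 19 did not pass, beside 48.6% of all genes called. In ASCs against ESCs (50.3% of all genes) 4 were higher and 7 lower. ESC-ASCs were lower than ESCs in 13 and higher in 4 (60.1% of all genes), with Parp1 at 1.10 ± 0.18 and the zinc finger gene Zfp143 at 1.16 ± 0.11 among the higher and the remodeller subunit Arid1a at -1.35 among the lower. ASCs were higher than AFSCs in 12 and lower in 6 (64.0% of all genes), with medians of 0.37 for the list and 0.021 for all genes. EpiLCs against ESCs gave 5 higher and 8 lower (55.3%), ESC-ASCs against ASCs 3 higher and 7 lower (50.7%), and AFSCs against EpiSCs 1 higher and 10 lower (39.4%). Nr0b1 (DAX1), an OCT4-binding nuclear receptor, had means of 522 normalized counts per kb in ASCs, 374 in ESCs, 132 in ESC-ASCs, 65.9 in EpiLCs and 0.191 in AFSCs and no count in EpiSCs, at least 37.8-fold below EpiLCs.

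The genes with the profile most like each member over the 6 group means were found among 12441 genes by the root mean square difference of centred log2 levels. For Sox2 they were Gm14393 (0.33), 2500002B13Rik (0.36) and Pim1 (0.36), a kinase gene known as a LIF target. For Nanog they were Mir1901 (0.27), Irak2 (0.31) and Ddah1 (0.36), and for Utf1 Kirrel2 (0.33), Gm26697 (0.49) and Bst2 (0.49). Sall4 had the closest neighbours, Gm42715 (0.07), Hgsnat (0.10) and Zfp84 (0.11), followed by Zscan10 with BC002059 (0.13), Zfp719 (0.14) and Trir (0.14). The pair on chromosome 16 had more distant ones, for Dppa2 2210016F16Rik (0.61), Rex2 (0.70) and Zfp534 (0.71), and for Dppa4 the imprinted RNA gene H19 (0.53), Cyct (0.54) and Gm44805 (0.60). These are likenesses over 6 points that share libraries. Pou5f1 spanned less than 1 on the log2 scale and was not matched.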

How the data were processed

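RNA-seq of 18 samples was used as deposited, that is as raw counts of fragments per gene. To make these counts the authors aligned read pairs with TopHat2 (GRCm38), from polyA libraries that keep strand, and counted fragments over Ensembl release 86 exons with featureCounts 1.5.0-p1. Counting ignored strand, asked for an overlap of at least 10 bp, and counted a fragment for each gene and each place it matched, so overlapping genes and near-identical copies share counts. Some tables carry the name ASC for samples labelled AFSC, and the labels were followed. The study calls the 3 samples of a group biological replicates.

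The 16901 genes that reached 10 counts in 3 or more samples were fitted with edgeR 4.0.16 in R 4.3.3 (limma 3.58.1): TMM normalization, 1 quasi-likelihood fit with robust estimation over all 18 samples, and Benjamini-Hochberg adjustment within each comparison. The common dispersion was 0.0283, and total counts per sample ran from 4961934 to 18071600. A standard error is the log2 fold change divided by the square root of F. It understates the error of Dppa2 and Dppa4 wherever AFSCs or EpiSCs enter, since their few counts carry a larger counting error. Levels are counts per size factor (DESeq2 1.42.0) and per kb of exon, and 0.1 was added before log2 was taken. Ratios within samples were compared by exact permutation tests in scipy 1.17.1 (Python 3.11.15, numpy 2.4.6, pandas 2.3.3, matplotlib 3.10.9). The fit was tested on simulated data. Motifs were searched on both strands of RefSeq promoter windows.

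The 8 genes were named in full. Lists were described by counts with the highest and lowest called log2 fold changes as examples, and some further examples were chosen after their values were seen. The 3 genes most alike were named for members that span more than 1 on the log2 scale and searched among genes with a mean log2 level above 3. The genes and lists were chosen with earlier results of these data known. Alternatives were another scaling (DESeq2 size factors, upper quartile), DESeq2, no filter or at least 10 counts in every sample, a replicate block, only the groups compared, ESC-ASC counts thinned to the depth of the others, and leaving out each sample, or 4 together.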

Additional observations from a re-analysis of the deposited data

Results flagged for a closer look

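For 7 of the 8 genes the move from AFSCs to ASCs differed from the move from ESCs to ESC-ASCs, by an interaction term in the edgeR fit over all 18 samples. This term also holds the difference between the starting cultures, AFSCs and ESCs, in which all 8 genes passed. It does not by itself show that ASCs and ESC-ASCs ended at different levels. Line and medium cannot be told apart in it, since the lines that gave these samples are not given. The log2 shift from AFSCs to ASCs minus that from ESCs to ESC-ASCs was 6.93 ± 0.27 (SE) for Dppa2, 5.48 ± 0.32 for Dppa4, 3.12 ± 0.23 for Nanog, 2.32 ± 0.26 for Sox2, 1.89 ± 0.17 for Sall4, 1.24 ± 0.24 for Zscan10 and -3.02 ± 0.30 for Utf1. The standard errors of Dppa2 and Dppa4 are too small, since AFSCs hold few counts of both. The adjusted p was at most 0.000258 in these 7. Leaving out any 1 library kept all 7 called.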

How the results depend on the processing

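Leaving out 1 sample at a time gave 4 to 5 called genes in AFSCs against EpiSCs, 7 to 8 in ASCs against AFSCs, 6 to 7 in ASCs against ESCs, 4 to 6 in ESC-ASCs against ASCs and 6 to 8 in EpiSCs against EpiLCs. It left 6 in both ESC-ASCs and EpiLCs against ESCs and 7 in the difference of the moves into ABCL. Of gene values 4 changed sign, all of them uncalled, within ranges of -0.11 to 0.31 for Pou5f1 in ASCs against ESCs (-0.11 and -0.035 without ASC replicate 2 or 3) and -0.0089 to 0.18 for Zscan10 in EpiLCs against ESCs (-0.0089 and -0.0047 without EpiLC replicate 1 or ESC replicate 3). The log2 Sox2 to Pou5f1 ratio of ESC-ASCs against ASCs ran from -0.25 to 0.0057. The log2 Dppa4 to Dppa2 ratio ran from -0.36 to 0.64 in ASCs against AFSCs, -0.14 to 0.10 in EpiLCs against ESCs and -0.51 to 0.77 in AFSCs against EpiSCs, and where AFSCs or EpiSCs enter it rests on 2 to 8 counts. Without the 4 libraries that stood apart, a setting chosen after seeing the data, 7 genes passed in ESC-ASCs against ASCs in place of 4. Over all genes 9954 of 16607 then passed there, in place of 8567 of 16901. Asking for at least 10 counts in every sample left 6 of the 8 genes, without Dppa2 and Dppa4, and gave 3 called in EpiSCs against ESCs and 3 in AFSCs against EpiLCs, and over all genes 4161 to 7626 calls among 10821 tested in place of 6659 to 12196. With only the 2 groups in the fit, Nanog in ASCs against ESCs (adjusted p = 0.0569) and Sall4 in ASCs against AFSCs (adjusted p = 0.0578) lost their calls, and calls were gained by Dppa2 in ESC-ASCs against ESCs (0.0264), Dppa4 in ESC-ASCs against ASCs (0.0395), and Pou5f1 (0.0381) and Zscan10 (0.00882) in EpiSCs against EpiLCs. Pou5f1 in ASCs against AFSCs gained one with DESeq2 (adjusted p = 0.0438). Same-numbered samples of different groups were not paired, since the correlation of their deviations ranged from -0.239 to 0.511 (mean 0.0924 over 45 pairs), although replicate 1 of 4 groups shared the direction of the shift with GC content. A replicate block gave 8 called genes in ASCs against AFSCs, adding Pou5f1, beside 11193 of all 16901 genes in place of 10810. It gave 7 in EpiSCs against EpiLCs, adding Zscan10, beside 8636 of all genes in place of 8206. The block left the other 5 main counts of the 8 genes as they were. In AFSCs and EpiSCs the depth leaves at most 8 counts a sample for Dppa2 and Dppa4, so a difference between those groups could not be resolved.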
